A study of Mus musculus with 2 samples.

Results

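The 9 genes described here encode proteins that are attacked in autoimmune disease when Aire, a transcriptional regulator of the thymus, is missing. They were picked by gene symbol as known targets, whatever their level, and all were found, 9 of the 23997 gene rows of the deposited table. Polyadenylated RNA was sequenced from mTECs, the epithelial cells of the thymic medulla, gated for much MHC class II on their surface and sorted by flow cytometry from pooled C57BL/6 mice. There was 1 library labelled Aire-KO, with the genotype Aire-/-, and 1 library labelled WT. The number, age and sex of the pooled mice and the targeted part of Aire are not stated in the labels. With 1 library per genotype there is no replicate check, no p-value was computed, and every difference below compares 2 libraries.

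Medullary thymic epithelial cells transcribe many genes that otherwise belong to single peripheral tissues, so that developing T cells reactive to those proteins can be deleted or become regulatory cells. Aire drives a large share of this display. People who lack AIRE develop autoimmune polyendocrine syndrome, with autoantibodies to enzymes of neurotransmitter synthesis and to the oocyte and parathyroid protein NLRP5. In mice that lack Aire, inflammation of the retina is directed in large part at the photoreceptor matrix protein encoded by Rbp3. The pair of libraries gives the level of each of these genes under each label. It cannot decide which of them need Aire for their transcription.

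Aire itself stood at 640.2 FPKM in the library labelled Aire-KO and at 220.6 FPKM in the library labelled WT (FPKM, fragments scaled to transcript length and library size). A value over the whole transcript cannot show a deleted part, so it does not check the labels, and directions below follow the label of each library. The smallest steps in the values imply about 55700000 fragments in the library labelled Aire-KO and 46200000 in the library labelled WT. Of 20 mTEC markers, Aire was the 1 that was higher by 2-fold and 0 were lower, and their summed level was 34502 FPKM in the library labelled Aire-KO and 25571 FPKM in the library labelled WT. Markers of other cells summed to 21.4 (Aire-KO) and 35.6 FPKM (WT) for thymocytes, 56.0 (Aire-KO) and 69.0 FPKM (WT) for dendritic cells and macrophages, 41.7 (Aire-KO) and 42.4 FPKM (WT) for B cells, and 21.8 (Aire-KO) and 33.3 FPKM (WT) for fibroblasts and endothelium. By the 2-fold rule given below, 3 of 9 thymocyte markers, 6 of 8 dendritic cell and macrophage markers, 1 of 5 B cell markers and 2 of 5 fibroblast and endothelial markers were lower, and 1 B cell marker was higher. None of these 34 markers was listed at 0 in either library, and their part in the results below was not tested. The 8 markers of cortical epithelium summed to more, 1093.1 (Aire-KO) and 818.6 FPKM (WT), and 1 was lower, 0 higher and 7 neither. Ccl25 alone held 809.2 (Aire-KO) and 546.4 FPKM (WT) of that sum. The part of cortical cells in the results below was not tested either. In these bulk libraries, fewer cells that transcribe a gene and less RNA per cell cannot be told apart.

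The 9 genes covered a wide range of levels and differed between the libraries in unlike sizes. Th and Ddc were lower under the Aire-KO label by at least 2-fold, Gad1, Tg, Sag and Tph1 stayed within 2-fold, and Nlrp5, Rbp3 and Gad2 were too weak to be called. The call needed a 2-fold difference in FPKM + 0.1 and a mean over both libraries of at least 0.5 FPKM, so it goes by size alone and no test stands behind it. By that rule 6 members could be called, of which 2 were lower and 0 higher. Over all 15906 genes that reached the minimum, 20.5% were lower and 7.09% higher. The median log2 ratio, Aire-KO over WT with 0.1 FPKM added to each value, was -0.74 over the 6 members and 0.05 over all 15906 genes. The members nearest the minimum were Nlrp5 below it, with a mean of 0.489 FPKM, and Tg above it, with 1.72 FPKM. A member such as Th reaches the minimum through its value under the WT label alone, so the count over 6 is a description.

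**Figure D1:**
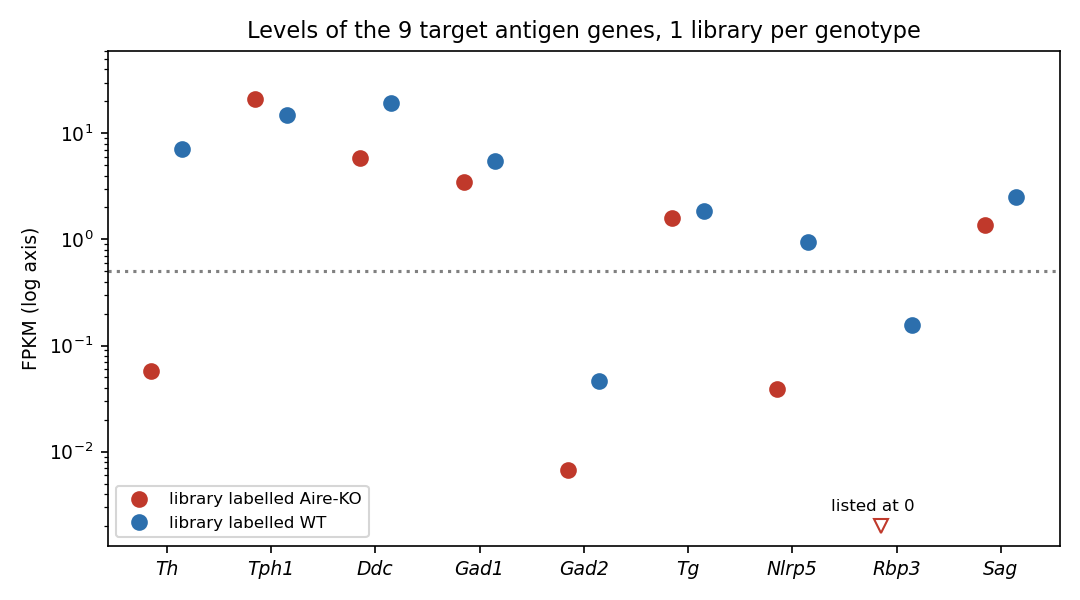
Level of each member in FPKM on a log axis, with the library labelled Aire-KO left of the library labelled WT; each point is 1 library, the dotted line marks 0.5 FPKM, and the open triangle marks a gene listed at 0. Th spans the widest gap, 0.0581 FPKM (Aire-KO) against 7.04 FPKM (WT), and Tph1 is the 1 member whose point for the library labelled Aire-KO lies higher.

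In the library labelled Aire-KO the order of levels was Tph1, Ddc, Gad1, Tg, Sag, Th, Nlrp5, Gad2 and Rbp3. In the library labelled WT it was Ddc, Tph1, Th, Gad1, Sag, Tg, Nlrp5, Rbp3 and Gad2. FPKM is divided by transcript length, so levels may be compared between genes, but with single libraries no spread between samples shows which neighbours in either order differ. Tph1 lay above 82.4% of the 23992 genes with an estimate under the Aire-KO label and above 77.4% under the WT label. Th lay above 27.9% of genes under the Aire-KO label and above 64.5% under the WT label.

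Th, Ddc and Tph1 encode enzymes of monoamine synthesis. Th encodes tyrosine hydroxylase, the rate-limiting step towards dopamine, noradrenaline and adrenaline. Its level was 0.0581 FPKM under the Aire-KO label and 7.04 FPKM under the WT label. These levels rested on an estimated 5.1 (Aire-KO) and 556.1 (WT) fragments, and the log2 ratio without a pseudocount was -6.92 (95% counting interval -8.55 to -5.69). Such intervals are exact conditional binomial intervals on estimated fragments and take in nothing but counting error, and without molecular identifiers fragments can be copies of 1 molecule. Th was the member with the most negative ratio. The gene has a single annotated transcript in the deposited table, placed by the GENCODE M21 annotation on chromosome 7, 142892752 to 142900014 (minus strand, mm10).

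The sequence before the start of Th is shown because it holds an exact cAMP response element, TGACGTCA, which is its own reverse complement and a known control site of tyrosine hydroxylase. The letters lie at positions -45 to -38 from the RefSeq start, and 1.55% of 32851 promoter windows of the same 250 bases hold them. The window is chr7:142899996-142900245 on the minus strand of GRCm38.p6, from RefSeq, with the element in capitals. The RefSeq start, 142899995, lies downstream of the GENCODE start, 142900014, so the end of the window lies within the GENCODE transcript.

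Th upstream: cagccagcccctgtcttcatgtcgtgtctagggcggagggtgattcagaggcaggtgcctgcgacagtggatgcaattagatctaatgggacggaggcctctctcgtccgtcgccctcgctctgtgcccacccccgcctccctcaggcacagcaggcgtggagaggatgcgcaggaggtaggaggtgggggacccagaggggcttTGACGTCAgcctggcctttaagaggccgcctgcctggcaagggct

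Ddc encodes aromatic L-amino acid decarboxylase, which acts after both Th and Tph1 and makes dopamine and serotonin. It stood at 5.83 FPKM under the Aire-KO label and at 19.2 FPKM under the WT label, a log2 ratio of -1.72 (-1.86 to -1.58) from an estimated 577.3 (Aire-KO) and 1680.3 (WT) fragments. Ddc was thus past the 2-fold line. Ddc spans 11814101 to 11898144 on chromosome 11. It still lay above 62.9% of genes under the Aire-KO label, against 81.3% under the WT label.

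The mouse gene has a pair of annotated first exons whose starts lie 7736 bp apart on the minus strand of chromosome 11. Transcript NM_001190448, from the distal start at 11898144, stood at 5.83 FPKM under the Aire-KO label and 18.8 FPKM under the WT label. Transcript NM_016672, from the proximal start at 11890408, was listed at 0 under the Aire-KO label and stood at 0.353 FPKM under the WT label. Over the full length of the proximal transcript, 0 fragments in the library labelled Aire-KO would allow up to 0.0314 FPKM (3 counts). Both transcripts overlap over most of their span, so the listed 0 rests on how the authors' tool divided shared reads. The true limit can therefore be higher. In the library labelled WT that transcript made up 1.84% of Ddc, an estimated 29.9 fragments, and the distal one 98.2%. Nearly all Ddc RNA was thus assigned to the distal start in each library, and the difference in the gene was that of this transcript.

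The stretches before both starts are shown because the starts differ so much in use. The distal one is chr11:11898145-11898394 and the proximal one chr11:11890409-11890658, both on the minus strand of GRCm38.p6 from RefSeq, with TATAAA or its reverse complement TTTATA in capitals. The distal window holds it at -68 to -63 from the start and has a GC content of 40.8%, and the proximal window holds none and has 56.0%. TATAAA on either strand is in 12.4% of the 32851 windows, whose median GC content is 52.4%.

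Ddc distal: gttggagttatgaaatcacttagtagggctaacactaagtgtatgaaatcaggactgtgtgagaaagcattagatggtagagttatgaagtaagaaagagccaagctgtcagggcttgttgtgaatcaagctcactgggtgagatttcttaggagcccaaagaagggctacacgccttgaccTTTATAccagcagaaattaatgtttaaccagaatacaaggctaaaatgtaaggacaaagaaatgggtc
Ddc proximal: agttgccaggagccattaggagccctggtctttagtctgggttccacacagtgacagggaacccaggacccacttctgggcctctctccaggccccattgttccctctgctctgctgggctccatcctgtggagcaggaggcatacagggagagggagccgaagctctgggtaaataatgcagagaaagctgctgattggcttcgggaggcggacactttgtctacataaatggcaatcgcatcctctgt

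Tph1 encodes the tryptophan hydroxylase of peripheral tissues, which limits serotonin synthesis in the enterochromaffin cells of the gut and in the pineal gland. It was the 1 member with a higher value under the Aire-KO label, 21.1 FPKM, against 15.03 FPKM under the WT label. The log2 ratio was 0.49 (0.37 to 0.61), within the 2-fold rule. Tph1 lies on the minus strand of chromosome 7, 46644641 to 46672537. Of the 8 members with an interval, Tph1 was the 1 whose counting interval lay above 0, and the other 7 lay below 0. Intervals were made for members only, so no share over all genes stands beside these counts. With many fragments a counting interval leaves out 0 at a small difference. That of Tg did so at a log2 ratio of -0.23, from an estimated 725.9 (Aire-KO) and 717.2 (WT) fragments.

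Tph1 has a pair of annotated starts 5194 bp apart at most, and 3 transcripts in the deposited isoform table. NM_001136084, from the proximal start at 46667377, stood at 10.8 FPKM under the Aire-KO label and 6.05 FPKM under the WT label. NM_001276372, a transcript of 578 bp that begins beside it, stood at 8.60 FPKM under the Aire-KO label and 7.23 FPKM under the WT label. NM_009414, from the distal start at 46672537, stood at 1.66 FPKM under the Aire-KO label and 1.75 FPKM under the WT label. The proximal transcripts together came to 19.4 FPKM under the Aire-KO label and 13.3 FPKM under the WT label. By this assignment the higher value of the gene lay with the proximal start. How the authors' tool divided reads between the overlapping proximal transcripts, of which NM_001276372 is short, carries an error that was not measured. The distal transcript spans both proximal ones, so the split between the starts rests on that division of reads too.

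The windows before the Tph1 starts are shown for the same reason as those of Ddc. The proximal one is chr7:46667378-46667627, with a GC content of 58.8% and a ratio of observed to expected CpG of 0.920. The distal one is chr7:46672538-46672787, with 43.6% and 0.431, and the median ratio over all windows is 0.374. Both are on the minus strand of GRCm38.p6 from RefSeq. None of the motifs searched on either strand (TATAAA, TGACGTCA and TAATCC) is in either window.

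Tph1 proximal: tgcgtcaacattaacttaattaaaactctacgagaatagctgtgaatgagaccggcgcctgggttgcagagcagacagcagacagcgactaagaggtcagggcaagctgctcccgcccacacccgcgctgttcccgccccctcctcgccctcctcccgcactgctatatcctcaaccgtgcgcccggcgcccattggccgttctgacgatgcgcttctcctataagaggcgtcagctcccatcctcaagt
Tph1 distal: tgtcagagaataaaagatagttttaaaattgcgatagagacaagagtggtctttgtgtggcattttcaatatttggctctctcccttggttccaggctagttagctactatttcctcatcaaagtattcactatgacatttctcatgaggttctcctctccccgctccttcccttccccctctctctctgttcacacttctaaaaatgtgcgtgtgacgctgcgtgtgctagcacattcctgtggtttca

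**Figure D2:**
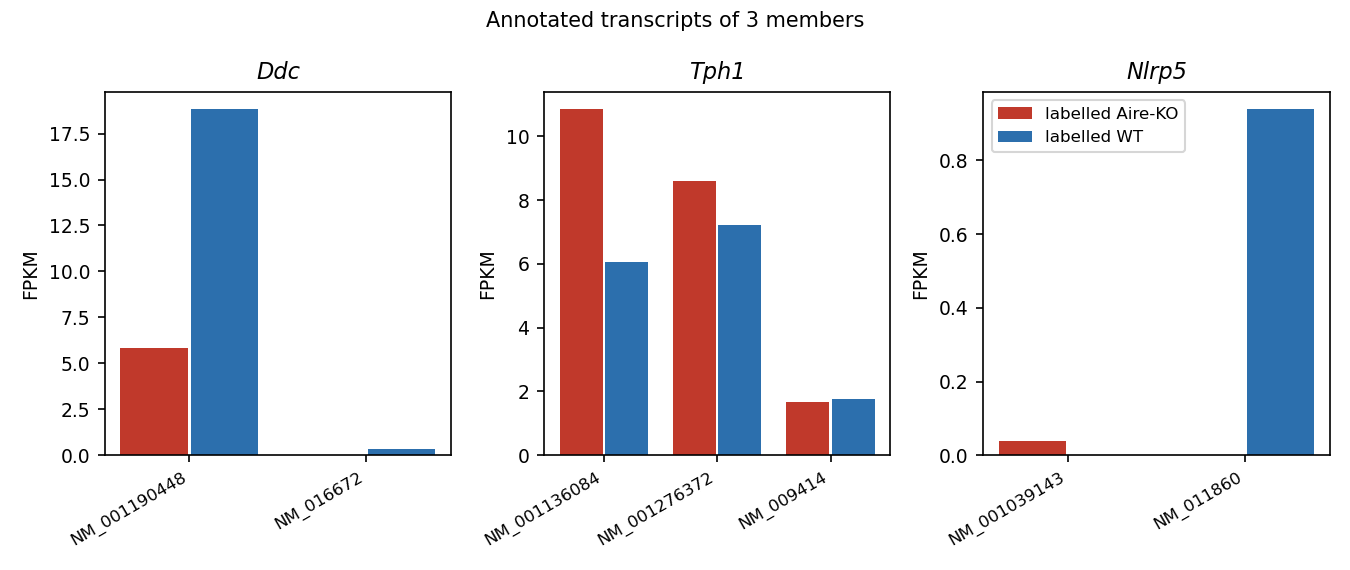
FPKM of each annotated transcript of Ddc, Tph1 and Nlrp5, with the bar of the library labelled Aire-KO left of that of the library labelled WT, 1 library each. Ddc NM_001190448 is the tall pair at 5.83 FPKM (Aire-KO) and 18.8 FPKM (WT), Tph1 NM_001136084 reaches 10.8 FPKM (Aire-KO) against 6.05 FPKM (WT), and Nlrp5 NM_011860 has a visible bar under the WT label only (0.939 FPKM).

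The 20 other genes of monoamine synthesis, storage, uptake and breakdown were split between lower values and values within 2-fold. Of the 17 that reached the minimum, 8 were lower, 2 higher and 7 neither (median log2 ratio -0.95). Hdc, the histidine decarboxylase that makes histamine and is itself a reported target of autoantibodies, was higher, at 789.2 FPKM under the Aire-KO label and 288.0 FPKM under the WT label. Maoa, a mitochondrial enzyme that breaks monoamines down, was also higher, at 23.5 FPKM under the Aire-KO label and 10.6 FPKM under the WT label, a call it loses when the libraries are scaled to a median log2 ratio of 0 among genes with a mean of at least 5 FPKM. The enzymes that make or recycle the tetrahydrobiopterin cofactor of Th and Tph1 were within 2-fold as deposited. Gch1, the first of them, stood at 3.89 FPKM under the Aire-KO label and 7.59 FPKM under the WT label, a log2 ratio of -0.95, and was named after its value was seen. It becomes lower when the libraries are scaled to the same FPKM sum (-1.02) and under the median scaling (-1.10). Spr stood at 110.7 FPKM under the Aire-KO label and 67.3 FPKM under the WT label, Qdpr at 59.8 FPKM (Aire-KO) and 54.1 FPKM (WT), Pcbd1 at 42.5 FPKM (Aire-KO) and 69.9 FPKM (WT), and Pts at 58.2 FPKM (Aire-KO) and 49.3 FPKM (WT).

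The serotonin transporter gene Slc6a4 was close in both, at 62.2 FPKM under the Aire-KO label and 52.8 FPKM under the WT label. The enzymes that follow Th and Ddc in adrenaline synthesis were lower. Dbh, which makes noradrenaline, stood at 0.655 FPKM under the Aire-KO label and 2.67 FPKM under the WT label. Pnmt, which makes adrenaline, stood at 1.72 FPKM under the Aire-KO label and 16.3 FPKM under the WT label. The dopamine transporter gene Slc6a3 stood at 0.0561 FPKM under the Aire-KO label and 1.76 FPKM under the WT label. Dbh, Pnmt and Slc6a3 were named after their values were seen.

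Markers of enteroendocrine and neuroendocrine-like cells, the cells that normally hold Tph1 and Ddc in the gut, are given beside these genes. Of 15 such markers, 1 of which (Chga) is also in the islet list, 10 reached the minimum, of which 6 were lower, 1 higher and 3 neither. Their summed level was 166.6 FPKM under the Aire-KO label and 147.1 FPKM under the WT label, and the regulator gene Insm1 alone held 120.5 FPKM (Aire-KO) and 53.4 FPKM (WT) of it. The lineage regulator genes Neurog3, Fev and Lmx1a were listed at 0 under the Aire-KO label and stood at 2.43, 1.60 and 0.468 FPKM under the WT label. The part of these cells in the values of Th, Ddc and Tph1 was not tested.

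Glutamate decarboxylase, which makes the inhibitory transmitter GABA, has a pair of genes and is a target in type 1 diabetes as well as in AIRE deficiency. Gad1 stood at 3.44 FPKM under the Aire-KO label and 5.47 FPKM under the WT label, a log2 ratio of -0.67 (-0.82 to -0.52). Gad1 lies on chromosome 2, 70562042 to 70602014, and Gad2 on the same chromosome, 22622205 to 22693874, both on the plus strand of mm10. Gad2, the form that islet autoantibodies recognise in people, was close to the detection limit, at 0.00676 FPKM under the Aire-KO label and 0.0465 FPKM under the WT label. Those values correspond to an estimated 2.1 (Aire-KO) and 12.1 (WT) fragments, and the counting interval of the log2 ratio was wide, -5.98 to -0.61. Of the pair, Gad1 therefore carried nearly all the signal in each library. The exons of Gad1 do not overlap those of its antisense neighbour Gad1os, on the opposite strand, which stood at 0.103 FPKM under the Aire-KO label and 0.211 FPKM under the WT label.

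Of 11 other genes of GABA synthesis and transport, 7 reached the minimum and 3 of these were lower, with a median log2 ratio of 0.03. Abat, the transaminase that breaks GABA down, was lower, at 0.487 FPKM under the Aire-KO label and 3.03 FPKM under the WT label, and was named after its value was seen. The other enzyme genes that reached the minimum were within 2-fold. Glul stood at 52.6 FPKM under the Aire-KO label and 39.3 FPKM under the WT label, Gls2 at 9.33 FPKM (Aire-KO) and 7.10 FPKM (WT) and Aldh5a1, which oxidises the product of GABA transamination, at 3.05 FPKM (Aire-KO) and 2.98 FPKM (WT). The GABA transporter gene Slc6a13 was lower, at 0.102 FPKM under the Aire-KO label and 4.16 FPKM under the WT label. Of 9 other islet autoantigen genes, 6 reached the minimum and 4 were lower, with a median log2 ratio of -1.42. The amylin gene Iapp was lower, at 9.21 FPKM under the Aire-KO label and 192.2 FPKM under the WT label. The insulin gene Ins2 was lower, at 0.197 FPKM (Aire-KO) and 72.1 FPKM (WT), and so was the chromogranin gene Chga of secretory granules, at 16.6 FPKM (Aire-KO) and 45.5 FPKM (WT). The phosphatase-like autoantigen gene Ptprn was lower, at 1.93 FPKM under the Aire-KO label and 5.23 FPKM under the WT label. Its relative Ptprn2 was neither, at 12.6 FPKM under the Aire-KO label and 14.7 FPKM under the WT label, as was Ica1, at 8.96 FPKM (Aire-KO) and 11.7 FPKM (WT).

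Tg encodes thyroglobulin, the large precursor on which thyroid hormone is made and a classical target of autoimmune thyroiditis. Its level was 1.59 FPKM under the Aire-KO label and 1.86 FPKM under the WT label, with a log2 ratio of -0.23 (-0.38 to -0.08). Tg lies on the plus strand of chromosome 15, 66670753 to 66850721. Because the transcript is 8454 bp long, these modest levels rested on an estimated 725.9 (Aire-KO) and 717.2 (WT) fragments, while Gad1, with its higher FPKM but shorter transcript, had an estimated 597.0 under the Aire-KO label. Sla lies within Tg on the opposite strand and stood at 1.68 FPKM under the Aire-KO label and 2.01 FPKM under the WT label. The exons of Tg and Sla do not overlap, and 112 of the 8454 exonic bases of Tg overlap the opposite-strand gene Gm17140.

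Other thyroid genes mostly did not share the small difference of Tg. Of 17 others, 12 reached the minimum, of which 8 were lower, 0 higher and 4 neither (median log2 ratio -1.46). Iyd, the gene of iodotyrosine deiodinase, was lower, at 0.458 FPKM under the Aire-KO label and 11.2 FPKM under the WT label. Duoxa2, which matures the oxidase that supplies peroxide, was lower, at 0.726 FPKM under the Aire-KO label and 4.45 FPKM under the WT label. The anion exchanger gene Slc26a4 was lower as well, at 2.60 FPKM under the Aire-KO label and 5.56 FPKM under the WT label, a call it loses with a pseudocount of 1 FPKM. Among the genes neither lower nor higher were the iodide transporter gene Slc5a5, at 3.39 FPKM under the Aire-KO label and 2.21 FPKM under the WT label, Duoxa1, at 3.38 FPKM (Aire-KO) and 4.43 FPKM (WT), and the deiodinase gene Dio1, at 332.6 FPKM (Aire-KO) and 286.9 FPKM (WT). Pax8, a transcription factor of thyroid follicular cells, stood at 0.0154 FPKM under the Aire-KO label and 1.75 FPKM under the WT label. Pax8 was named after its value was seen.

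Nlrp5 encodes a maternal protein of the oocyte, part of the subcortical complex of the egg, and its human counterpart is a parathyroid autoantigen in AIRE deficiency. It stood at 0.0392 FPKM under the Aire-KO label and 0.939 FPKM under the WT label. An estimated 7.1 (Aire-KO) and 147.0 (WT) fragments gave a log2 ratio of -4.58 (-5.92 to -3.50), the second most negative among the members. Nlrp5 lies on the plus strand of chromosome 7, 23385889 to 23441922. Nlrp5 lay just short of the minimum mean and so enters no count of called members.

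The fragments of the library labelled Aire-KO were assigned mostly to NM_001039143, at 0.0389 FPKM and 99.3% of the gene, and those of the library labelled WT to NM_011860, at 0.939 FPKM and 99.99%. Apart from their ends, these transcripts differ by 1 exon of 48 bp (chromosome 7, 23413305 to 23413352), present in NM_011860. The share under the Aire-KO label rests on an estimated 7.0 fragments, so it does not resolve which transcript was present there.

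Among 19 other oocyte genes, 11 reached the minimum, of which 7 were lower, 1 higher and 3 neither (median log2 ratio -1.57). Ooep, whose protein sits in the same complex as that of Nlrp5, was lower, at 25.8 FPKM under the Aire-KO label and 62.4 FPKM under the WT label. Tle6, a further subunit, was neither, at 3.30 FPKM under the Aire-KO label and 3.68 FPKM under the WT label. Dppa3, a maternal chromatin factor gene, was lower, at 9.71 FPKM under the Aire-KO label and 77.5 FPKM under the WT label, as was Npm2, at 1.65 FPKM (Aire-KO) and 5.11 FPKM (WT). The zona pellucida genes, which encode the coat of the egg, gave different calls. Zp3 was lower, at 0.193 FPKM under the Aire-KO label and 6.41 FPKM under the WT label. Zp2 was neither, at 105.4 FPKM under the Aire-KO label and 55.4 FPKM under the WT label. Zar1 was just past the line for higher, at 15.4 FPKM under the Aire-KO label and 7.60 FPKM under the WT label, and Zbed3 was neither, at 13.1 FPKM (Aire-KO) and 8.47 FPKM (WT). Zar1 loses its call under that median scaling, when the libraries are scaled to the same FPKM sum and with a pseudocount of 1 FPKM.

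Rbp3 and Sag are both retinal antigens that can drive experimental uveitis. Rbp3 encodes the retinoid-binding protein of the matrix between photoreceptors and pigment epithelium, and Sag encodes rod arrestin, which shuts off activated rhodopsin. Rbp3 lies on chromosome 14, 33954003 to 33964216, and Sag on chromosome 1, 87803680 to 87845158, both on the plus strand. Rbp3 was listed at 0 under the Aire-KO label and stood at 0.157 FPKM under the WT label, an estimated 37.6 fragments. For this 5295 bp transcript a count of 0 fragments allows up to 0.0107 FPKM (3 counts), and no fold is given because a listed 0 can be a failed estimate. Sag stood at 1.37 FPKM under the Aire-KO label and 2.51 FPKM under the WT label, a log2 ratio of -0.87 (-1.22 to -0.53), and was neither by the size rule. Its interval reaches past the 2-fold line, so these counts place Sag on either side of that line.

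The windows before Rbp3 and Sag are shown because both hold TAATCC, here as its reverse complement GGATTA, the core letters bound by the photoreceptor factor Crx. In Rbp3 the letters lie at -69 to -64 from the start, and in Sag at -87 to -82. They are in 6.25% of the 32851 windows, and the window of Gad1 holds them too, at -203 to -198. Sag also holds TTTATA, the reverse complement of TATAAA, at -207 to -202, and no motifs overlap. The Rbp3 window is chr14:33953753-33954002 and the Sag window chr1:87803430-87803679, both on the plus strand of GRCm38.p6 from RefSeq, with these letters in capitals. The match is a description of letters, and binding was not measured.

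Rbp3 upstream: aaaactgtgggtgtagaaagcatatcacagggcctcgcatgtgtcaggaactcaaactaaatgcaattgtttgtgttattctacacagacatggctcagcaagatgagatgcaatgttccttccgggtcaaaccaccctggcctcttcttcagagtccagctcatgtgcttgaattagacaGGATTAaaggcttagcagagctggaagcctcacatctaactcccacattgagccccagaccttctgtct
Sag upstream: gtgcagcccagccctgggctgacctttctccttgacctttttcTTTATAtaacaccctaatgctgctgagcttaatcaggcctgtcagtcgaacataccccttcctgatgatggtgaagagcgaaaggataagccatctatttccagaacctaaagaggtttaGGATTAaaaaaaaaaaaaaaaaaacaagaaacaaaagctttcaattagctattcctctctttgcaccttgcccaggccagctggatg

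Of 33 other genes of photoreceptors and the visual cycle, 17 stayed below the minimum, and 16 could be called, of which 9 were lower, 2 higher and 5 neither. Their median log2 ratio was -1.41. Crx itself was listed at 0 under the Aire-KO label and stood at 0.729 FPKM under the WT label, and was named after its value was seen. Aipl1, a chaperone of photoreceptor phosphodiesterase, was lower, at 0.0132 FPKM under the Aire-KO label and 8.93 FPKM under the WT label. Recoverin, from Rcvrn, a retinal autoantigen in people, was lower, at 0.558 FPKM under the Aire-KO label and 7.22 FPKM under the WT label. The rod transcription factor gene Nrl was lower, at 2.54 FPKM under the Aire-KO label and 7.36 FPKM under the WT label, and so was the retinol dehydrogenase gene Rdh12, at 11.7 FPKM (Aire-KO) and 45.5 FPKM (WT).

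The higher genes of this list were Lrat, which esterifies retinol, at 9.49 FPKM under the Aire-KO label and 2.23 FPKM under the WT label, and rhodopsin kinase, Grk1, at 2.29 FPKM (Aire-KO) and 0.969 FPKM (WT). Grk1 loses its call with a pseudocount of 1 FPKM. Rom1, an outer segment disc protein gene, was neither, at 17.0 FPKM under the Aire-KO label and 16.8 FPKM under the WT label, as were Cngb1, at 4.51 FPKM (Aire-KO) and 4.60 FPKM (WT), and Unc119, at 15.4 FPKM (Aire-KO) and 16.6 FPKM (WT).

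**Figure D3:**
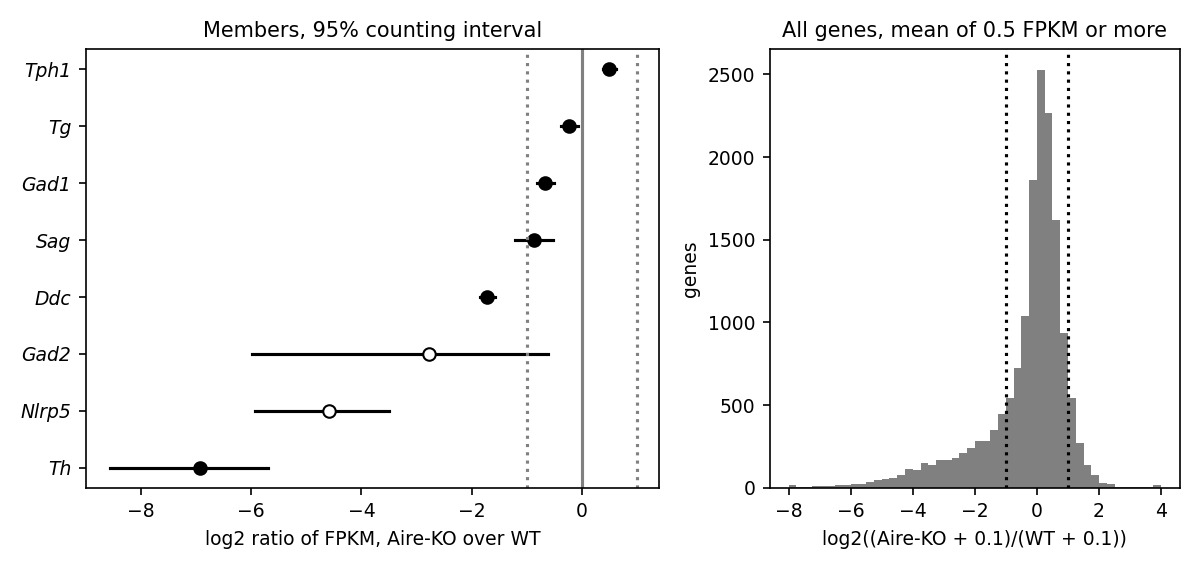
Left, log2 ratio of FPKM (Aire-KO over WT, no pseudocount) of the 8 members with a value in both libraries, with 95% counting intervals that do not cover variation between mice or libraries; open points lie below a mean of 0.5 FPKM. Right, the number of genes by log2 ratio with 0.1 FPKM added, over 15906 genes; dotted lines mark 2-fold, beyond which lie 20.5% of genes on the lower and 7.09% on the higher side.

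A further list held 28 other genes reported as autoimmune targets in Aire or AIRE deficiency, 22 of which reached the minimum. Of these, 15 were lower, 1 higher and 6 neither (median log2 ratio -1.55). Lower genes included Cyp11a1, the first enzyme of steroid synthesis, at 1.05 FPKM under the Aire-KO label and 17.3 FPKM under the WT label, and the lung antigen gene Bpifb1, at 1.18 FPKM (Aire-KO) and 31.0 FPKM (WT). The liver P450 gene Cyp2a5 was lower, at 116.4 FPKM under the Aire-KO label and 557.8 FPKM under the WT label, and so was the gastric proton pump gene Atp4a, at 11.998 FPKM (Aire-KO) and 37.4 FPKM (WT). Cyp17a1, another steroid enzyme gene, was neither, at 8.51 FPKM under the Aire-KO label and 11.2 FPKM under the WT label. Sox9 was also neither, at 29.5 FPKM under the Aire-KO label and 20.0 FPKM under the WT label, as was Sptan1, at 28.9 FPKM (Aire-KO) and 35.01 FPKM (WT). The 1 higher gene was Hdc, given above.

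Over the 7 lists, which share some genes, there were 134 different genes besides the members, of which 88 reached the minimum. Of these 88 genes 52 (59.1%) were lower, 5 (5.68%) higher and 31 neither, and the median log2 ratio was -1.42. Over all 15906 genes 20.5% were lower and 7.09% higher, with a median of 0.05. Most of the lower list genes lay below the minimum under the Aire-KO label and reached it through their value under the WT label alone. Examples are Bpifb9a, listed at 0 (Aire-KO) and at 1.08 FPKM (WT), and Slc6a12, at 0.00771 (Aire-KO) and 1.02 FPKM (WT). The 59.1% thus rests in large part on genes admitted by the library in which they were higher. How many of the lower genes among all 15906 were admitted in that way was not counted. The lists were chosen with earlier results of these libraries known, so the shares over the 88 genes describe the lists and support nothing about other tissue genes.

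**Figure D4:**
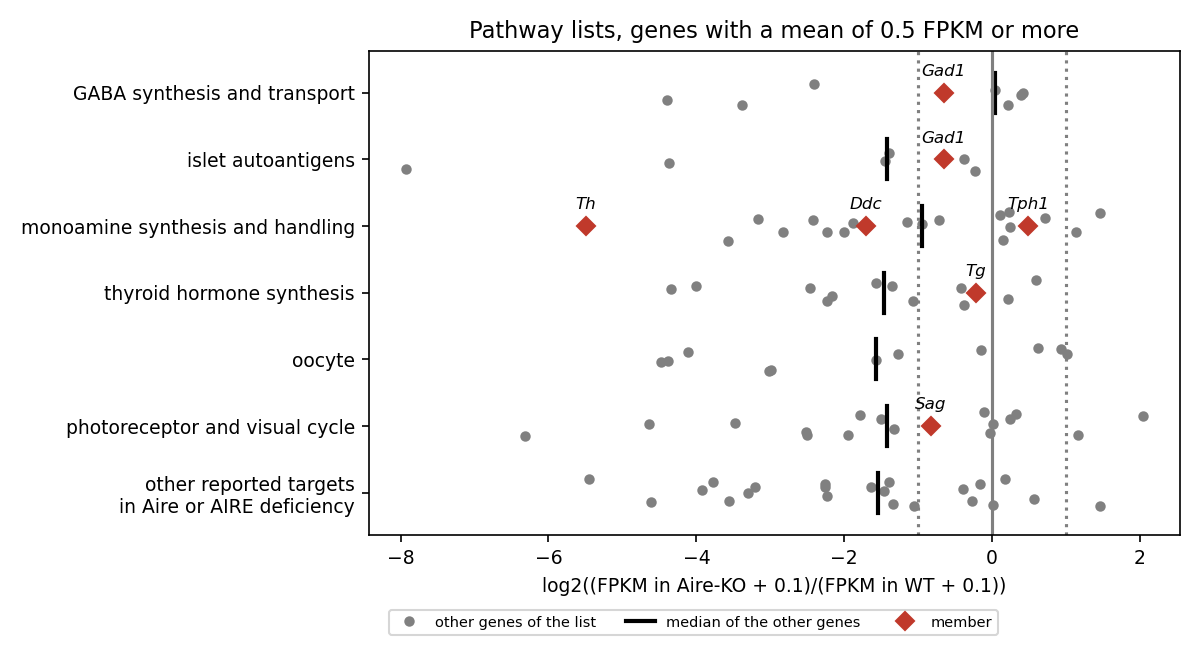
Each point is 1 gene with a mean of 0.5 FPKM or more, placed by its log2 ratio (Aire-KO over WT, 0.1 FPKM added), with 1 row per pathway list; diamonds are members, bars are medians of the other genes and dotted lines mark 2-fold. Th lies to the left of the median of its list (-0.95), while Tg lies to the right of that of the thyroid list (-1.46).

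The nearest gene row on either side of each of the 9 members gave 18 neighbours. Of the 11 that reached the minimum, 2 were lower, 2 higher and 7 neither, beside 20.5% lower and 7.09% higher over all genes. Both lower neighbours flank Th. Ins2, an insulin gene, lies 213068 bp before Th and stood at 0.197 FPKM under the Aire-KO label and 72.1 FPKM under the WT label. Ascl2, a transcription factor gene, lies 66856 bp after it and stood at 0.230 FPKM under the Aire-KO label and 2.28 FPKM under the WT label.

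Next to Ddc, which was lower, Grb10, an adaptor protein gene 32355 bp away, was higher, at 17.1 FPKM under the Aire-KO label and 5.38 FPKM under the WT label, while Fignl1, 5139 bp away on the other side, was neither, at 3.46 FPKM (Aire-KO) and 1.79 FPKM (WT). Rbp3 sits between Gdf2, at 0.0720 FPKM under the Aire-KO label and 0.309 FPKM under the WT label, and Zfp488, listed at 0 under the Aire-KO label and at 0.108 FPKM under the WT label. Tph1 lies between Sergef, at 6.32 FPKM under the Aire-KO label and 6.58 FPKM under the WT label, and Saal1, at 3.52 FPKM (Aire-KO) and 2.92 FPKM (WT). The other neighbours of members were within 2-fold or below the minimum, except the small RNA gene Scarna6 beside Sag, at 1.34 FPKM under the Aire-KO label and listed at 0 under the WT label, and RNAs this short are poorly measured by FPKM.

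In the authors' deposited table the lowest q-value among the 9 members was 0.125, for Rbp3. The p-value in the authors' deposited table was also lowest for Rbp3, at 0.00095, and next for Ddc, at 0.0953 with a q-value of 0.666. For Th the authors' deposited table gave a p-value of 0.144 and a q-value of 0.739, and for Tg a p-value of 0.828 and a q-value of 0.999. In the authors' deposited table the p-values were 0.137 for Gad2, 0.219 for Nlrp5, 0.558 for Gad1, 0.566 for Sag and 0.616 for Tph1. Such p-values set 1 library against another and do not speak for the genotypes.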

How the data were processed

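Values are the authors' deposited FPKM, for 23997 genes and 33295 isoforms. The deposited tables also carry the authors' own p-value and q-value per row. TopHat2 and Cuffdiff with build mm10 were used, per the submitters' processing notes; their versions, the annotation, strand setting and library scaling: not given in the sources used here. The 5 rows without an estimate (status HIDATA) were left out. Ratios are log2((Aire-KO + 0.1)/(WT + 0.1)), which understate changes of low genes. Counting intervals used plain ratios. The members and gene lists were chosen with earlier results of these data known.

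Depth came from the FPKM steps of single-isoform genes of 2000 bp or more, with lengths from GENCODE M21 through RefSeq links. The transcript coordinates of the members came from the same annotation. Of low values up to 5 fragments, 79.3% (Aire-KO) and 78.2% (WT) lay within 0.1 of a whole number, after fitting depth and a length offset of 240 bp (Aire-KO) and 120 bp (WT) to those values. Depths of 52600000 to 56500000 (Aire-KO) and 45600000 to 48200000 (WT) fitted within 1 percentage point. On simulated data the depth fit came close to the known depth but did not recover the known length offset, so estimated fragments are approximate. All 219 list symbols matched a row, by symbol, row name or RefSeq synonym. RefSeq promoter windows (GRCm38.p6, the build of mm10) matched 8 members and were not given for Tg. Upstream 250 bases were searched on both strands.

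Text names all members, up to 8 genes per list with the highest mean from 2 FPKM, list genes called higher, nearest rows and, for members at the minimum, the 2 nearest genes in log2(FPKM + 0.1). Some list genes are counted but not reported here by name. Python 3.11.15, pandas 2.3.3, scipy 1.17.1 and matplotlib 3.10.9 were used.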

Additional observations from a re-analysis of the deposited data

How the results depend on the processing

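No paired analysis was possible because there is 1 library per genotype, so no replicate could be left out either. Over 10 alternative settings, the count of members called higher stayed 0. The count called lower was 2 except with no minimum (4, adding Nlrp5 and Rbp3), at 1.5-fold (4, adding Gad1 and Sag) and at 4-fold (1, Th). The median log2 ratio of the members was -0.55 with a pseudocount of 1 FPKM and -1.18 with a minimum of 2 FPKM, which leaves 4 members. All 40 single ratios recomputed (8 members, 5 settings) kept their sign. With 0.1 FPKM added, as in the main setting, the log2 ratio was -2.90 for Nlrp5, -5.50 for Th and -0.46 for Gad2. That of Ddc was -1.70 and that of Tph1 was 0.49. Nlrp5 was at -4.27 with a pseudocount of 0.01 FPKM and at -0.90 with 1 FPKM, and Th at -2.93 with 1 FPKM. Gad2 was at -1.75 with 0.01 FPKM and at -0.06 with 1 FPKM. Pathway genes called lower numbered 83 with no minimum, 28 with a minimum of 2 FPKM, 34 at 4-fold and 43 with a pseudocount of 1 FPKM. Those called higher numbered 3 with a pseudocount of 1 FPKM, 3 after scaling so that the median log2 ratio of genes with a mean of at least 5 FPKM is 0, 1 at 4-fold and 9 at 1.5-fold. The share of all tested genes called lower was 15.2% with a pseudocount of 1 FPKM, 21.6% with no minimum, 14.3% with a minimum of 2 FPKM, 21.5% after scaling to the same FPKM sum, 22.4% after that median scaling, 11.9% at 4-fold and 26.8% at 1.5-fold. The same scaling took the median of all genes to -0.10, against 0.05 as deposited, and put Tph1 at 0.33 and Ddc at -1.86. Depth limits Gad2, Rbp3, Nlrp5 and Th, each with fewer than 8 estimated fragments in the library labelled Aire-KO.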

Other observations

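For each member with a mean of 0.5 FPKM or more, the genes nearest in level are given, by Euclidean distance in log2(FPKM + 0.1) over the 2 libraries, as a description with no claim of shared function. Th had the most distant nearest gene, at 0.11, the imprinted gene Dlk1, which stood at 0.0708 FPKM in the library labelled Aire-KO and 6.91 FPKM in the library labelled WT. Kng1, the kininogen gene of the liver, followed at 0.19, with 0.0727 FPKM in the library labelled Aire-KO and 6.39 FPKM in the library labelled WT. Nearest to Ddc were Osr2, at 5.75 FPKM in the library labelled Aire-KO and 18.7 FPKM in the library labelled WT, and Iffo2, at 5.82 FPKM (Aire-KO) and 18.4 FPKM (WT). The other pairs were Fbxw17 and Ythdf1 for Tph1, Cmpk2 and Fcrls for Gad1, Ppp1r14a and Pag1 for Tg, and Traf3ip3 and Ano1 for Sag, all within 0.04.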
